A study of Mus musculus with 6 samples.

Results

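The genes that surround Myrf on mouse chromosome 19 were compared between the retinas of Myrf +/− mice and wild-type mice. They are the genes of the deposited table (GRCm38) that start in the 2 Mb of chromosome 19 from position 9200000 on, about 1 Mb to either side of Myrf. Myrf itself and 2 further genes of the window, Best1 and Fth1, were left out. This rule, which used position alone, gave 72 of the 55450 genes in the table. RNA of whole retina was sequenced in 6 libraries of C57BL/6 mice aged 8 weeks. The labels name 3 of them Myrf-kd, from Myrf +/− animals that carry 1 altered copy of Myrf, and 3 WT, with no treatment named for either group. How the altered copy was made, which part of the gene it changes and from which strain its flanking DNA comes are not recorded in the labels. The labels do not say that the libraries are separate animals, so each p-value refers to the spread between libraries, which may be technical in part.

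Myrf encodes a membrane-anchored transcription factor that drives myelin genes in oligodendrocytes. In mice with an engineered allele, the genes beside the alteration form a control of their own, because an insertion or deletion can reach a neighbour, and flanking DNA is inherited with the allele. The stretch around Myrf holds the fatty acid desaturase cluster, genes for DNA repair, messenger RNA processing, cilia and vesicle release, and a cluster of immune cell surface genes. Many of these genes lie close together and in opposite directions, and some pairs start from the same stretch of DNA.

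Of the 72 genes, 38 were protein-coding and 34 were pseudogenes, non-coding RNAs or unclassified transcripts. A mean level of at least 1 FPKM (fragments scaled for transcript length and library depth) over the 6 libraries was required for testing. That filter was passed by 24 genes, 20 of them protein-coding, and the remaining 48 are described by their levels. No count of any kind was listed in any library for 22 of those 48. Of the tested genes 13 overlapped a gene on the opposite strand. The labels do not say whether strand was kept, and without it reads of such partners are not told apart.

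The tested genes included 4 pairs that are transcribed away from each other with starts within 1000 bp: Fen1 with Tmem258, Sdhaf2 with Cpsf7, Tmem138 with Cyb561a3 and Tkfc with Ddb1. The start regions of 3 pairs are shown because both genes of each pair share them, so that 2 readings exist for 1 regulatory stretch. Each is the RefSeq promoter window (GRCm38.p6, from 250 bases before the start to 50 after it) of the gene on the plus strand, read 5′ to 3′. Capitals mark the bases that also lie in the promoter window of the partner on the minus strand, 220 of 300 bases for Tmem258 and Fen1, 134 for Cpsf7 and Sdhaf2 and 170 for Cyb561a3 and Tmem138.
Tmem258, with Fen1 (chr19:10203952-10204251, plus strand): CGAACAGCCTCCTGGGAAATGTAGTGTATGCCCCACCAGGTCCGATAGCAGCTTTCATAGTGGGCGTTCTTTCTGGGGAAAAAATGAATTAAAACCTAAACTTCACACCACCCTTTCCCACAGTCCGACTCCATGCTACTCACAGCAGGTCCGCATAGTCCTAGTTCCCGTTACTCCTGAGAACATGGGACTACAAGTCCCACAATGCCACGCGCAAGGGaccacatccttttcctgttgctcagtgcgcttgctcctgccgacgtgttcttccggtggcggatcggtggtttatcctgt
Cpsf7, with Sdhaf2 (chr19:10524994-10525293, plus strand): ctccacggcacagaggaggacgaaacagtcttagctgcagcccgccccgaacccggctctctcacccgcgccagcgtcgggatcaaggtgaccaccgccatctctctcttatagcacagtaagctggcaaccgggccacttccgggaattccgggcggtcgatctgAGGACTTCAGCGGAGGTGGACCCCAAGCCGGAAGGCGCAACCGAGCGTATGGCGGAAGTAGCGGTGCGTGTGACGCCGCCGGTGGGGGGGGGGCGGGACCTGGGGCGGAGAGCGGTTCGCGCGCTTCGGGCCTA
Cyb561a3, with Tmem138 (chr19:10576907-10577206, plus strand): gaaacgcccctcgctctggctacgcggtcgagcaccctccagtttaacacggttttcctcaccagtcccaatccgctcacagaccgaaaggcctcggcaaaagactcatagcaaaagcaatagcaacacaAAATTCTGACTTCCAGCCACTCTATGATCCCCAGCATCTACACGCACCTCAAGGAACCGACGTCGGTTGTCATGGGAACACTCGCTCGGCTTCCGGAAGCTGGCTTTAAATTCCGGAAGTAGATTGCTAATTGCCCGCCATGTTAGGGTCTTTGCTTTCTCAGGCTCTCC
The Cpsf7 window held 33 CG dinucleotides, the Cyb561a3 window 18 and the Tmem258 window 14, where the median of all 32851 windows in the RefSeq table was 7. The GC box GGGCGG, searched on both strands, was found 4 times in the Cpsf7 window and in neither of the other two. It occurs in 35.7% of all windows. The sequence known for binding of the Myrf protein, CTGGCAC or CTGGTAC, was searched on both strands in the 22 windows of the 15 tested members with an entry. It was found in 1, that of Prpf19, and it occurs in 7.10% of all windows.

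The libraries were of like depth, with 50695091 to 70298511 count units and about 4 units per fragment. Markers of rods, cones, bipolar, amacrine, ganglion and Mueller glial cells were detected in every library, the lowest at 4.44 FPKM, which fits the labelled tissue. Pigment epithelium markers were present as well, with the 3 summed at 62.0 to 94.7 CPM (counts scaled to an equal, normalized library total) in Myrf-kd and 84.2 to 124 CPM in WT. Of 4 T lymphocyte markers, Cd3e, Cd3d and Cd2 were listed without signal in all 6 libraries, and Lck was at 0.138 to 0.356 FPKM. The 4 summed rod markers lay at 26580 to 29440 CPM in Myrf-kd and 30470 to 49010 CPM in WT. The 3 summed cornea markers were at 0.576 to 5.07 CPM in Myrf-kd and 12.6 to 17.5 CPM in WT. The part of these marker differences in the values below was not tested. On the first principal component, with 29.8% of the variance, Myrf-kd 3 was at 34.2 and the other 5 libraries were at −16.3 to −0.886. It and WT 3 came from females by Xist, and the other 4 libraries from males. Each group thus holds libraries of both sexes, and whether the male libraries of a group are separate animals is not recorded. Myrf was listed at 0.359, 0.397 and 0.463 FPKM in WT 1, 2 and 3 and at 0.279, 0.382 and 0.351 FPKM in Myrf-kd 1, 2 and 3, so the groups overlapped. The fit put Myrf-kd at 81.9% of WT (95% interval, 59.6% to 113%), and these reads over the whole gene do not check the genotype.

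None of the 24 tested neighbours of Myrf passed the test. With edgeR (quasi-likelihood fit, Benjamini-Hochberg adjustment), 0 of 24 had an adjusted p under 0.05, where 0.0439% of all 13674 tested genes did. The lowest adjusted p among the neighbours was 0.682, that of Cpsf7. At an unadjusted p under 0.05 the count was also 0 of 24, against 7.48% of all tested genes. After adjustment DESeq2 called 0 of 24 and 53 of all 13674 tested genes, and limma called 0 of 24 and 4 of 13674. Estimates were higher in Myrf-kd for 12 neighbours and lower for 12. Their median log2 fold change was 0.01, the median of all tested genes was 0.00, and the quartiles of the neighbours were −0.13 and 0.11.

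A level of 50% of WT, which the loss of 1 of 2 copies would give in a gene whose output follows its copy number, lay below the 95% interval of 22 of the 24 neighbours. The share over all tested genes was 93.7%. Fen1 and Mir6993, whose intervals reached down to 38.3% and 22.6% of WT, were the exceptions. For 17 of 24 the whole interval lay within 1.5-fold of WT in both directions, against 69.2% of all tested genes. The plot of fold change by distance shows narrow intervals around 0 on both sides of Myrf and wide ones for the few genes with low or uneven counts.

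**Figure D1:**
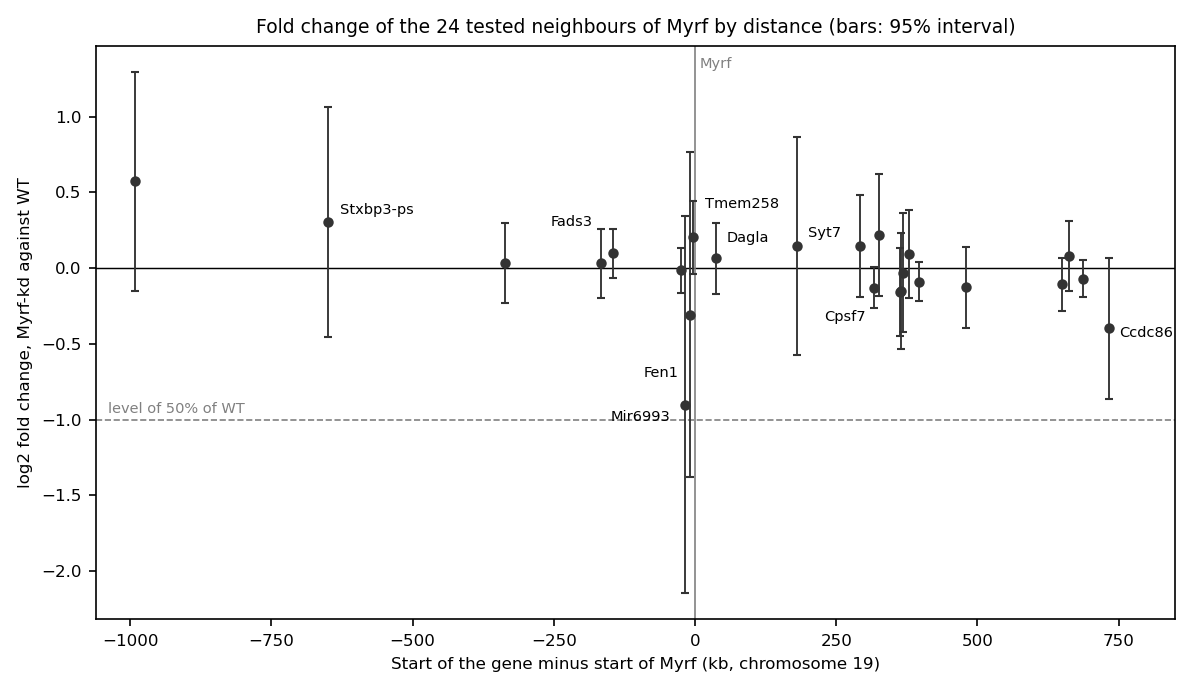
Log2 fold change of Myrf-kd against WT (points) with its 95% interval (bars) for the 24 tested neighbours, plotted by the distance in kb of their start coordinates from that of Myrf. The intervals of all but Fen1 and Mir6993 end above the dashed line at 50% of WT.

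In 5 of 24 neighbours the 3 Myrf-kd libraries all lay on 1 side of the 3 WT libraries, as they did in 14.6% of all tested genes. Tmem258 was the 1 neighbour with Myrf-kd above WT, a pattern found in 7.13% of all tested genes. Cpsf7, Ddb1, Prpf19 and Ccdc86 were the 4 with Myrf-kd below WT, a pattern found in 7.5% of all tested genes. None of these 5 passed the test, and the shifts behind them were small except in Ccdc86. The separation of some depended on the scaling. Prpf19 overlapped with upper-quartile factors and at a mean of at least 5 FPKM, and Tmem258 overlapped with the filter lowered to 0.1 FPKM or dropped. On the FPKM scale Fads2 was apart as well, with Myrf-kd above WT.

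Estimates of both signs were found near Myrf and far from it. Within 50 kb of the Myrf gene, 5 tested neighbours had log2 fold changes from −0.90 to 0.20 with a median of −0.02. The 3 tested genes at 50 to 250 kb lay between 0.03 and 0.15, and the 16 beyond 250 kb lay between −0.40 and 0.57 with a median of −0.05. Of the 9 tested genes at lower coordinates than Myrf 6 had a higher estimate in Myrf-kd, and of the 15 at higher coordinates 6 did. Genes farther out on the chromosome were counted in the same way. Of 136 tested genes that start 1 to 5 Mb from Myrf 0 passed by edgeR. In that set 7 (5.15%) had an unadjusted p under 0.05 and 21 (15.4%) had groups that did not overlap. Of all 446 tested genes of chromosome 19 outside the window 0 passed, 24 (5.38%) had an unadjusted p under 0.05, and 68 (15.25%) had groups apart. Their median log2 fold change was 0.01. The shares were 0% and 20.8% for the 24 neighbours, and 7.48% and 14.6% for all tested genes. A difference between the window and these genes was not tested.

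**Figure D2:**
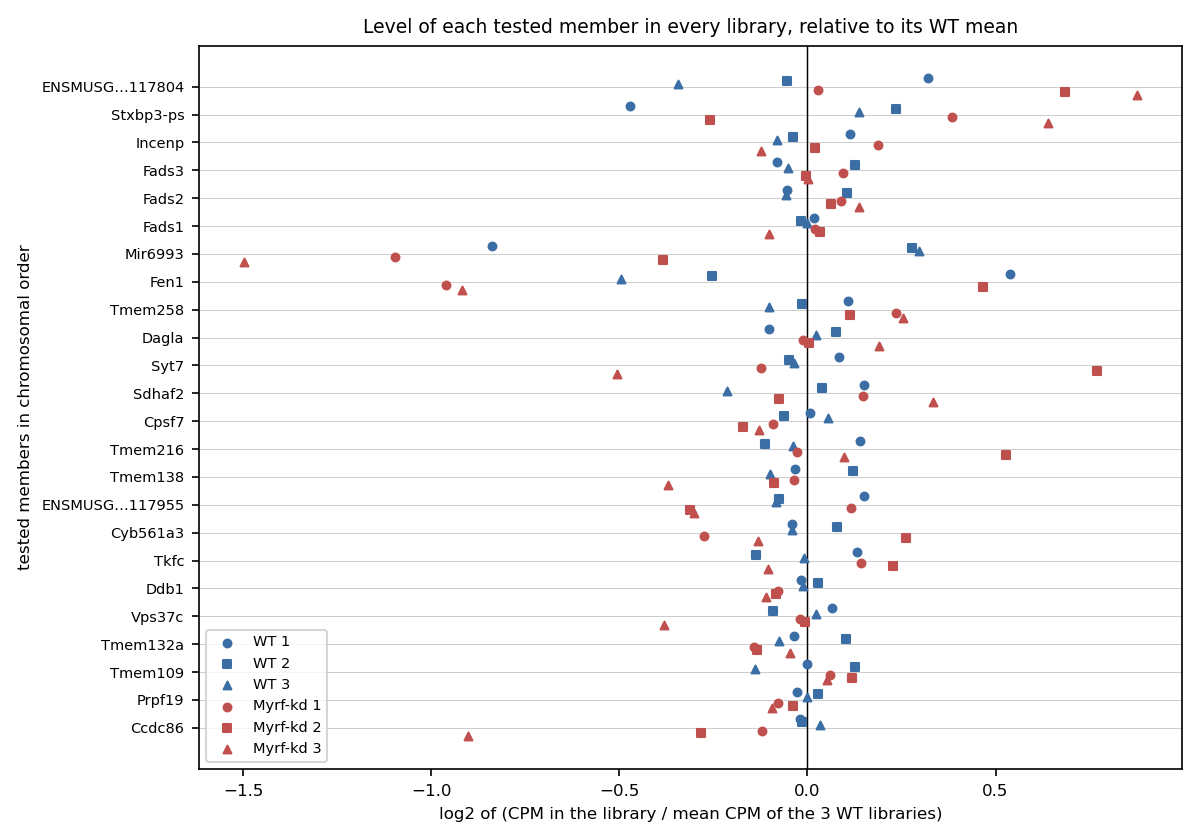
Level of each tested neighbour in every library, as log2 of its CPM over its mean CPM in the 3 WT libraries, in chromosomal order (blue WT, red Myrf-kd; circle, square and triangle for libraries 1, 2 and 3). Most points of both groups lie close to 0, and Fen1, Mir6993, Syt7 and the pseudogenes at the top spread widely within a group.

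The nearest gene is Tmem258 (ENSMUSG00000036372, 10204014 to 10207824, plus strand), which ends 448 bp from Myrf and encodes a small subunit of the oligosaccharyltransferase that attaches sugar chains to proteins in the endoplasmic reticulum. It was at 16.5, 15.2 and 14.3 CPM in WT 1, 2 and 3 and at 18.04, 16.6 and 18.3 CPM in Myrf-kd 1, 2 and 3. The lowest Myrf-kd library and the highest WT library were nearly level. The fitted Myrf-kd level was 115% of WT, within 97.5% to 136% at 95% confidence (log2 fold change 0.20 ± 0.10 SE, edgeR adjusted p = 0.696). On the log2(FPKM + 1) scale limma gave it an unadjusted p under 0.05, with an adjusted p of 0.663.

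Its partner across the shared start region, Fen1 (ENSMUSG00000024742, 10199132 to 10204169, minus strand), encodes the flap endonuclease of DNA replication and base excision repair. Fen1 was at 24.4, 14.1 and 11.9 CPM in WT 1, 2 and 3 and at 8.65, 23.3 and 8.91 CPM in Myrf-kd 1, 2 and 3. WT 1 and Myrf-kd 2 were high and the other 4 libraries low, so the groups overlapped and the highest library was 2.83 times the lowest. The fitted level was 80.8% of WT (95% interval 38.3% to 170%). The estimate depended on single libraries. Leaving out Myrf-kd 2 took the log2 fold change from −0.31 to −0.94, and leaving out WT 1 took it to 0.06. Between 139 and 394 fragments lay behind each value. Gm10143, a non-coding gene that overlaps Fen1 on the other strand, was at 1.66, 1.01 and 1.77 CPM in WT and at 1.57, 0.367 and 0.855 CPM in Myrf-kd. It was lowest in Myrf-kd 2, a library with high Fen1, but not low in WT 1, the other one. Tmem258 varied 1.28-fold over the same libraries.

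On the other side, Dagla (ENSMUSG00000035735, 10245265 to 10304877, minus strand) lies 4517 bp from Myrf, upstream of its start. It encodes the diacylglycerol lipase that makes an endocannabinoid at synapses. Dagla was at 26.2, 29.6 and 28.6 CPM in WT 1, 2 and 3 and at 27.9, 28.2 and 32.1 CPM in Myrf-kd 1, 2 and 3. The groups overlapped. Its fitted level was 104% of WT (95% interval 88.8% to 123%, log2 fold change 0.06 ± 0.10 SE). Dagla and Tmem258 flank Myrf directly among the tested genes, and for both of them a level of 50% lay outside the interval.

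**Figure D3:**
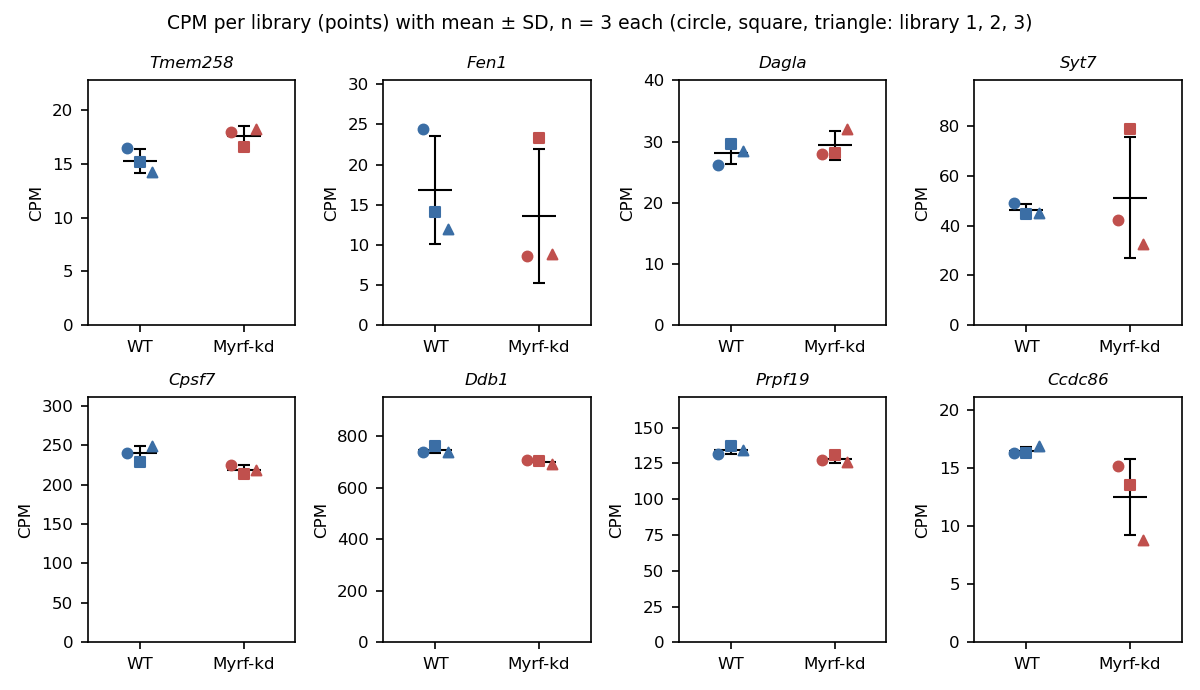
CPM in every library (points; circle, square and triangle for libraries 1, 2 and 3) with mean ± SD (n = 3 each) for 8 neighbours, on axes that start at 0. In Fen1 and Syt7 single libraries stand far from the others of their group, and the 3 Myrf-kd points lie below the WT points in Cpsf7, Ddb1, Prpf19 and Ccdc86.

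The desaturases Fads1, Fads2 and Fads3 form a cluster, of which Fads1 comes closest to Myrf, at 11395 bp. Fads1 and Fads2 introduce the double bonds of long-chain polyunsaturated fatty acids, which rod outer segment membranes hold in large amounts, and Fads3 acts on sphingolipid bases. Fads1 (ENSMUSG00000010663) was at 90.9, 88.6 and 89.6 CPM in WT 1, 2 and 3 and at 90.9, 91.9 and 83.6 CPM in Myrf-kd 1, 2 and 3. Only Myrf-kd 3 left the WT range by more than 2 CPM, and the fitted level was 98.9% of WT (95% interval 89.4% to 110%). Fads2 (ENSMUSG00000024665) was at 80.8, 90.1 and 80.6 CPM in WT and at 89.2, 87.5 and 92.2 CPM in Myrf-kd, with WT 2 inside the Myrf-kd range. Its fitted level was 107% of WT (95% interval 95.6% to 120%, edgeR adjusted p = 0.740). Fads3 (ENSMUSG00000024664) was at 17.6, 20.3 and 17.95 CPM in WT and at 19.9, 18.6 and 18.6 CPM in Myrf-kd, at a fitted 102% of WT. All 3 desaturases had intervals within 1.5-fold of WT.

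Mir6993, a microRNA gene listed at 1.57 FPKM, passed the filter with at most 14 count units in a library, since FPKM divides by its short length. The hairpin lies in the Fads1 intron from 10186884 to 10191439 and ends at its last base. Its mature forms from RefSeq (GRCm38.p6, plus strand) are shown with the seed, bases 2 to 8, in capitals, to make plain how short the counted feature is.
mmu-miR-6993-5p (chr19:10191380-10191402): aGUGGGAGaaacgggugucuguc
mmu-miR-6993-3p (chr19:10191419-10191439): cUUGCGUUuguuuccucacag
It was listed at 6, 10 and 14 count units in WT and 5, 8 and 4 units in Myrf-kd, which is at most about 4 fragments per library. Fragments of unspliced Fads1 RNA at this place are not told apart from it. Its log2 fold change of −0.90 ± 0.52 SE rests on these few fragments, and its groups overlapped.

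Among genes of DNA repair and chromosomes, Ddb1 (ENSMUSG00000024740, 10605327 to 10629819, plus strand) had the highest level of all tested neighbours. It encodes the adaptor that joins damage and substrate receptors to the CUL4 ubiquitin ligase. Ddb1 was at 738, 760 and 740 CPM in WT 1, 2 and 3 and at 707, 704 and 692 CPM in Myrf-kd 1, 2 and 3. All Myrf-kd libraries lay below all WT libraries, by a narrow margin, and the spread within each group was under 2% of the mean. The fitted level was 93.9% of WT (95% interval 85.9% to 103%, log2 fold change −0.090 ± 0.055 SE, edgeR adjusted p = 0.709). Incenp (ENSMUSG00000024660), which encodes the inner centromere protein of the chromosomal passenger complex, was at 29.6, 26.6 and 25.8 CPM in WT and at 31.2, 27.7 and 25.1 CPM in Myrf-kd. The Myrf-kd range enclosed the WT range, at a fitted 102% of WT.

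Both tested genes of messenger RNA processing are among the 4 with Myrf-kd below WT, a pattern that 7.5% of all tested genes had. Cpsf7 (ENSMUSG00000034820, 10525266 to 10547653, plus strand), a subunit of the cleavage factor for polyadenylation, was at 241, 229 and 249 CPM in WT 1, 2 and 3 and at 225, 213 and 219 CPM in Myrf-kd 1, 2 and 3. With the smallest unadjusted p of the neighbours, 0.0578, it had a fitted level of 91.4% of WT and a 95% interval from 83.2% to 100.4%. Without WT 2 its unadjusted p was under 0.05, and its adjusted p by edgeR was 0.904. Prpf19 (ENSMUSG00000024735), a ubiquitin ligase of the spliceosome, was at 132, 137 and 134 CPM in WT and at 127, 131 and 126 CPM in Myrf-kd, at a fitted 95.3% of WT. As given above, its groups overlapped under other scalings. Sdhaf2, which starts head to head with Cpsf7 and encodes an assembly factor of succinate dehydrogenase, was at 34.0, 31.4 and 26.4 CPM in WT and at 33.9, 29.0 and 38.5 CPM in Myrf-kd. Its groups overlapped, and its log2 fold change was 0.14 ± 0.14 SE. That estimate was 0.039 without Myrf-kd 3, 0.048 without WT 3 and −0.057 without both.

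Tmem138 and Tmem216 encode membrane proteins of the primary cilium that are linked to Joubert syndrome, and photoreceptor outer segments are modified cilia. Tmem216 (ENSMUSG00000024667) was at 12.6, 10.6 and 11.1 CPM in WT 1, 2 and 3 and at 11.2, 16.5 and 12.2 CPM in Myrf-kd 1, 2 and 3. Only Myrf-kd 2 was above the WT range. Tmem138 (ENSMUSG00000024666) was at 19.3, 21.5 and 18.4 CPM in WT and at 19.2, 18.5 and 15.3 CPM in Myrf-kd, with Myrf-kd 3 alone below the WT range. Fitted levels were 116% of WT for Tmem216 and 89.6% for Tmem138, with 95% intervals from 88.1% to 154% and from 73.2% to 110%. The log2 fold change of Tmem216 went from 0.22 to 0.036 without Myrf-kd 2, and that of Tmem138 from −0.16 to −0.062 without Myrf-kd 3 and to −0.093 without WT 2. Cyb561a3, which shares the start region of Tmem138 and encodes a cytochrome b561 of endolysosomal membranes, was at 8.78, 9.54 and 8.79 CPM in WT and at 7.46, 10.8 and 8.25 CPM in Myrf-kd. Myrf-kd libraries lay both below and above the WT range. Ppp1r32, another ciliary gene of the window, was below the filter at 0.436, 0.167 and 0.438 FPKM in WT and at 0.552, 0.709 and 0.162 FPKM in Myrf-kd.

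Of the synaptic and vesicle genes, Syt7 (ENSMUSG00000024743, 10389090 to 10448998, plus strand) varied most. It encodes the calcium sensor synaptotagmin-7 of slow vesicle release. Syt7 was at 49.0, 44.6 and 45.1 CPM in WT 1, 2 and 3 and at 42.4, 78.7 and 32.5 CPM in Myrf-kd 1, 2 and 3. Myrf-kd 2 stood far above, and Myrf-kd 1 and Myrf-kd 3 below, the WT range. The log2 fold change of 0.15 ± 0.30 SE became −0.30 without Myrf-kd 2, so its sign rested on that library. Myrf-kd 2 was also high in Fen1, at 23.3 CPM, and in Tmem216, at 16.5 CPM. Vps37c (ENSMUSG00000048832), a subunit of the ESCRT-I sorting complex, was at 73.5, 65.9 and 71.3 CPM in WT and at 69.3, 69.9 and 54.0 CPM in Myrf-kd. Only Myrf-kd 3 was outside the WT range, and the log2 fold change of −0.13 ± 0.11 SE became −0.013 without that library. Rab3il1, an exchange factor for the vesicle GTPase Rab3a, was below the filter and was listed at 0.795, 0.488 and 0.886 FPKM in WT and at 0.720, 0.627 and 0.990 FPKM in Myrf-kd.

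Ccdc86 (ENSMUSG00000024732, 10941481 to 10949266, minus strand), which encodes a nucleolar protein, had the largest shift of the neighbours whose groups did not overlap. It was at 16.3, 16.4 and 16.9 CPM in WT 1, 2 and 3 and at 15.2, 13.6 and 8.84 CPM in Myrf-kd 1, 2 and 3. The WT libraries were nearly level, and Myrf-kd 3 lay far below the other libraries. The fitted level was 75.9% of WT (95% interval 54.8% to 105%, log2 fold change −0.40 ± 0.20 SE, edgeR adjusted p = 0.695). It became −0.20 without Myrf-kd 3, the library that stood apart over all genes. The 3 summed lens markers were highest in that library too, at 37.8 CPM against 0.0 to 16.2 CPM in the others, and their part in the value was not tested. Ptgdr2 overlaps Ccdc86 on the other strand and had a mean of 0.142 FPKM.

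Of the other protein-coding neighbours, Tmem132a, whose protein is linked to Wnt signalling, was at 57.5, 63.3 and 55.9 CPM in WT 1, 2 and 3 and at 53.3, 53.7 and 57.1 CPM in Myrf-kd 1, 2 and 3. Myrf-kd 3 lay within the WT range. Tmem109, which encodes an ion channel of internal membranes, had fitted levels at 106% of WT (95% interval from 89.9% to 124%). Tkfc, the triokinase gene that starts head to head with Ddb1, was at 107% (95% interval from 87.3% to 131%). Neither had groups apart. A transcript of unclassified type inside Tmem138 (ENSMUSG00000117955), on the opposite strand, was at a fitted 90.0% of WT. Unless strand was kept, reads of the 2 are not told apart. The pseudogene Stxbp3-ps and a processed pseudogene at the edge of the window (ENSMUSG00000117804, 9216381 to 9216960) can share reads with their parent genes, so their values are uncertain. The second was at 1.41, 1.09 and 0.892 CPM in WT and at 1.15, 1.82 and 2.08 CPM in Myrf-kd. Its groups overlapped, and its log2 fold change of 0.57 ± 0.31 SE was the highest of the tested neighbours.

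Length-scaled levels of the tested neighbours spanned from 97.0 FPKM for Ddb1 to 1.48 FPKM for Stxbp3-ps. Cpsf7 came second with 31.9 ± 1.58 FPKM in WT and 29.5 ± 0.541 FPKM in Myrf-kd (mean ± SD, n = 3 each). Fads2 (21.7 ± 1.17 FPKM) and Vps37c (22.2 ± 1.54 FPKM) followed in WT, where the levels of these 2 genes were within each other's SD. In WT the levels of Fads1 (15.9 ± 0.426 FPKM) and Prpf19 (15.8 ± 0.0799 FPKM) also differed by less than the SD of Fads1. Tmem132a was at 11.1 ± 0.620 FPKM and Tmem258 at 8.11 ± 0.683 FPKM in WT.

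**Figure D4:**
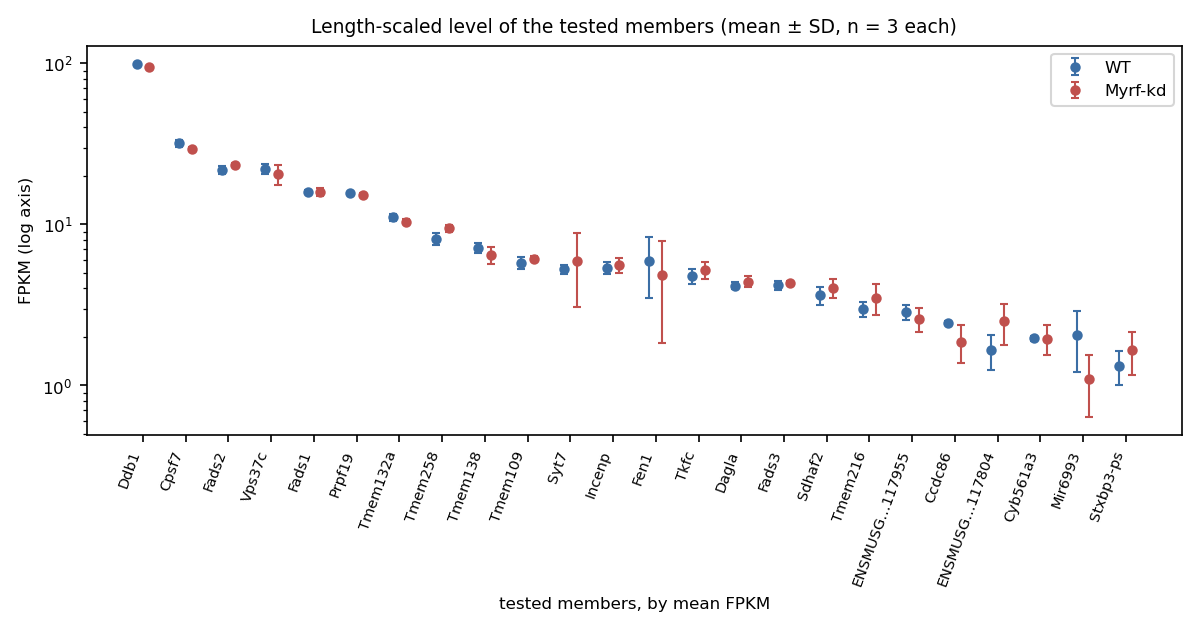
Mean FPKM ± SD (n = 3 libraries each, log axis) of the 24 tested neighbours in WT (blue) and Myrf-kd (red), ordered by mean level. Ddb1 stands at the top near 97.0 FPKM, and the 2 groups lie next to each other in nearly every gene.

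The single libraries differed in how often they were extreme. Myrf-kd 3 was the lowest library in 9 and the highest in 6 of the 24 tested neighbours, and Myrf-kd 2 was the highest in 5 and the lowest in 2. WT 2, the shallowest library, was the highest in 6 and the lowest in 2. With both libraries numbered 3 left out, 0 of 24 neighbours passed by edgeR, where 22 of all 13674 tested genes did. At an unadjusted p under 0.05 the count was 0 of 24, against 3.89% of all tested genes in that fit.

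Of the 48 neighbours below the filter, 26 had a count in at least 1 library. With the filter lowered to a mean of 0.1 FPKM 39 members were tested, and without a filter 50 were. In both cases 0 passed by edgeR, where 5 of all 21276 and 5 of all 31233 genes did. Likewise 0 had an unadjusted p under 0.05, which 6.55% and 5.04% of all genes in these fits had. In each fit 7 members had groups apart, 3 with Myrf-kd above WT and 4 below. The shares of all genes with groups apart were 13.5% and 10.7%. The smallest unadjusted p among these additional genes was that of a non-coding gene that lies next to Incenp (ENSMUSG00000118100, 9899690 to 9902661). It was listed at 0.635, 0.517 and 0.421 FPKM in WT 1, 2 and 3 and at 0.979, 0.796 and 0.899 FPKM in Myrf-kd 1, 2 and 3. The groups did not overlap, but only about 6 to 14 fragments per library lay behind these values (log2 fold change 0.72 ± 0.32 SE, edgeR adjusted p = 0.762). The pseudogene Pcna-ps2, at a mean of 0.859 FPKM, was the highest gene below the filter. It was followed by the non-coding gene ENSMUSG00000118138 at a mean of 0.799 FPKM.

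The immune genes at the far end of the window were at or near 0 in retina. Cd5 and Cd6 encode receptors of the T lymphocyte surface and reached at most 0.0283 and 0.00677 FPKM in any library, which is about 3 fragments or fewer. Ms4a8a, Ms4a10, Ms4a13, Ms4a15 and Ms4a18, of a family of membrane proteins that includes the B lymphocyte marker CD20, had no count in any of the 6 libraries. Slc15a3, a peptide transporter of endolysosomes in immune cells, was listed at 0.0688, 0.0463 and 0.0624 FPKM in WT and at 0.0457, 0.0829 and 0.0147 FPKM in Myrf-kd. The 6 summed microglia and macrophage markers were at 14.5 to 15.1 CPM in WT and 14.1 to 14.7 CPM in Myrf-kd. In RNA of whole retina fewer cells of a type and less RNA per cell cannot be told apart.

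Partners of these genes elsewhere in the genome were examined in 6 lists of 63 genes, all of which were tested. By edgeR 0 of 63 passed, and 7 (11.1%) had an unadjusted p under 0.05, against 7.48% of all tested genes. Of 12 further genes of polyunsaturated fatty acid synthesis 0 had an unadjusted p under 0.05, and 8 had higher and 4 lower estimates. The elongase gene Elovl2 was at 134, 34.9 and 26.6 CPM in WT 1, 2 and 3 and at 131, 114 and 117 CPM in Myrf-kd 1, 2 and 3. WT 2 and WT 3 were low, while WT 1 was the highest of the 6 libraries, and the edgeR adjusted p was 0.725. Acaa1a, a peroxisomal thiolase gene, was at 61.7 ± 1.60 CPM in WT and 72.7 ± 11.2 CPM in Myrf-kd. Of 11 other oligosaccharyltransferase genes 0 had an unadjusted p under 0.05, with Ddost at 46.7 ± 3.00 CPM in WT against 52.3 ± 1.90 CPM in Myrf-kd, and Ost4 at 31.3 ± 2.25 against 36.2 ± 3.57 CPM.

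Of 17 genes of the ciliary transition zone, the gate at the base of the cilium, 12 had higher and 5 lower estimates. Over all tested genes 6976 estimates were higher and 6698 lower. Of the 17 genes 4 (23.5%) had an unadjusted p under 0.05, against 7.48% of all tested genes. Cc2d2a, a scaffold of that gate, was at 81.4, 71.6 and 82.1 CPM in WT 1, 2 and 3 and at 92.3, 100 and 118 CPM in Myrf-kd 1, 2 and 3. Its Myrf-kd libraries all lay above WT (log2 fold change 0.40 ± 0.11 SE), with an edgeR adjusted p of 0.666. Tctn2 was at 29.0 ± 2.65 CPM in WT and 35.7 ± 2.27 CPM in Myrf-kd, and Cep290 at 24.95 ± 1.42 and 29.9 ± 2.41 CPM, with the same adjusted p. The list median log2 fold change was 0.08, where that of all tested genes was 0.00. Of 7 endocannabinoid genes 5 had higher and 2 lower estimates. Of these 1 had an unadjusted p under 0.05, Napepld at 10.3 ± 1.23 CPM in WT and 13.7 ± 1.63 CPM in Myrf-kd. Of 7 succinate dehydrogenase genes 2 had higher and 5 lower estimates. Of these 1 had an unadjusted p under 0.05, Sdhaf4 at 14.01 ± 0.260 CPM in WT and 17.0 ± 0.724 CPM in Myrf-kd. Of 9 genes of the CUL4 ligase 6 had higher and 3 lower estimates. Of these 1 had an unadjusted p under 0.05, Dda1 at 20.8 ± 1.315 and 26.1 ± 1.33 CPM. None of these passed over all genes, and a difference between any list and all tested genes was not tested.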

How the data were processed

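The members and gene lists were chosen with earlier results of these data known. Total RNA was extracted with Trizol, per the labels' protocols. The submitters' processing notes list the tools Bowtie 0.12.2, HISAT2 2.0 and StringTie 1.3.0 and the build GRCm38 without saying what each did. The authors deposited 1 table of 55450 Ensembl genes with an FPKM, scaled for length and depth, and a count per library. The deposited counts were read as estimated counts: the ratio of count to FPKM times transcript length, in single-transcript genes over 200 units, was the same within 1% for 100% of them in each library. Counts were already whole, and 4 units, the most frequent low count, were taken as 1 fragment. All 72 members matched the GENCODE M21 annotation by identifier, 67 with equal ends, and the table's own coordinates are printed.

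Genes with a mean of at least 1 FPKM, and Myrf, were tested (13674 genes) in edgeR 4.0.16 by quasi-likelihood, with TMM scaling and no term beside genotype. The Benjamini-Hochberg adjustment of the two-sided p-values covered all of them. The common biological coefficient of variation was 20.3%. SEs were derived from the fold change and its F statistic, and 95% intervals from the SEs. CPM values are scaled to TMM-normalized totals of the tested genes.

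Every tested member may be named. Values in every library are given for the 4 tested members nearest to Myrf on each side, members of the role lists and the 8 smallest unadjusted p-values, and for context lists up to 3 genes with the smallest p. Gm10143, Ptgdr2 and Slc15a3, and the library values of Cyb561a3, were added after their values were seen. Alternatives were limma 3.58.1 on log2(FPKM + 1) and log2(FPKM + 0.1), DESeq2 1.42.0, other scalings, filters and windows, counts in fragments, a replicate block and the omission of libraries. Counts of every pair of libraries differed beyond counting noise (chi-square per degree of freedom at least 18.3).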

Additional observations from a re-analysis of the deposited data

How the results depend on the processing

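No tested neighbour of Myrf passed an adjusted p of 0.05 under any of the 17 alternative fits or in windows of 0.5 Mb (18 tested genes) or 2 Mb (65) on each side, and the lowest adjusted p of the 24 genes over the fits was 0.528. Few genes passed in these fits at all, from 0 with the replicate block to 53 of 13674 with DESeq2. The 0 genes with an unadjusted p under 0.05 became 1 of 24 with limma at either pseudocount (Tmem258), where 7.44% and 7.41% of all tested genes had one. In the 2 Mb window 1 of 65 had one, against 7.48% of all tested genes. The count lay between 0 and 2 when single libraries were omitted. It was 2 without Myrf-kd 1 (Ccdc86 and ENSMUSG00000117804), 1 without Myrf-kd 2 (Fen1) and 1 without WT 2 (Cpsf7). The shares of all tested genes in these fits were 9.24%, 5.42% and 4.06%. The median log2 fold change of 0.01 became −0.056 at a mean of at least 5 FPKM, where 13 members were tested, and lay between −0.060 and 0.023 when single libraries were omitted, lowest without Myrf-kd 2. The 5 neighbours with groups apart became 3 at a mean of at least 5 FPKM (14.8% of all tested genes in that fit). With both libraries numbered 3 left out they became 9 (36.1%). In the main fit 3 of 18 were apart in the 0.5 Mb window and 10 of 65 in the 2 Mb window, against 14.6% of all tested genes. The 5 became 7 to 10 when single libraries were omitted, where smaller groups separate more often (21.7% to 29.0% of all tested genes).

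Of 397 estimates of the 24 genes under alternatives, 382 kept the direction and 15 did not. Fads1 was at 0.0015 (log2 fold change) with limma at a pseudocount of 1, 0.0016 at 0.1, 0.027 without Myrf-kd 3 and 0.026 with both libraries numbered 3 left out. Sdhaf2 was at −0.057 with both left out. When single libraries were omitted, the lowest and highest estimates were −0.041 and 0.027 for Fads1, −0.049 and 0.11 for Incenp, −0.0075 and 0.10 for Fads3, −0.94 and 0.063 for Fen1, −0.30 and 0.39 for Syt7, −0.20 and 0.080 for Cyb561a3 and −0.0033 and 0.10 for Dagla. The cause of these changes was not tested.

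The libraries share replicate numbers. Deviations of same-numbered libraries had correlations of −0.0478, 0.0154 and 0.0953, and those of differently numbered ones lay between −0.102 and 0.0923. With 3 libraries per group these values cannot decide whether the numbers pair the libraries. Both libraries numbered 3 came from females by Xist. With the replicate number as a block 0 of 24 neighbours passed, and 0 of all 13674 tested genes did. At an unadjusted p under 0.05 the count was 0 of 24, against 5.14% of all tested genes in that fit. The median was 0.01. The block does not enter the CPM values, so the 5 neighbours with groups apart could not change (14.6% of all tested genes). At most 14 count units per library lay behind Mir6993.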
